A study of Mus musculus with 51 samples.

Results

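The 10 genes described here code for apolipoproteins and for proteins that build, remodel or take up plasma lipoproteins: Apoa2, Apob, Apoe, Apoc1, Apoc2, Apoh, Apom, Mttp, Lcat and Scarb1. They were chosen by name and make up 10 of the 33773 gene symbols in the deposited expression table. All 10 were above the filter on low values in hepatocytes and in liver. The study deleted FoxA transcription factor genes in mice and measured RNA in hepatocytes by sequencing, with a separate set of livers labelled HNF4a null and their controls.

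Of the 4 hepatocyte groups, FoxA1/A2 lox (n = 3) carried floxed FoxA1 and FoxA2 genes without deletion, and FoxA1/A2 Cre alfp (n = 4) carried the Cre labelled alfp as well. For the triple null (n = 4), FoxA1 L/L FoxA2 L/L FoxA3-/- mice were injected at 8 weeks of age with AAV8, an adeno-associated virus, carrying Cre under the Tbg promoter, which is active in hepatocytes. FoxA3 null (n = 4) lacked FoxA3 only; the design text describes its controls as such mice given AAV with GFP, which is taken here to be this group, injected at 8 weeks of age as well. FoxA3 null and triple null thus share the FoxA3 deletion, and lox and Cre alfp share intact FoxA3. The 2 liver groups were HNF4a control (n = 2) and HNF4a null (n = 4), which the design text gives as depletion of HNF4a in the adult liver; the virus, the Cre and the age are not given for them. Time from injection to harvest is not given in the sources used here, nor whether the libraries of a group came from separate animals, so p-values measure the spread between libraries, which may be technical.

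Lipoproteins carry fats and cholesterol through blood. The liver loads triglyceride onto apolipoprotein B, using the microsomal triglyceride transfer protein that Mttp encodes, and secretes the particle as VLDL. Small apolipoproteins such as those of Apoe, Apoc1 and Apoc2 move between particles and control lipolysis and uptake, whereas Apoa2, Apom, Lcat and Scarb1 belong to the HDL pathway. FoxA proteins are forkhead factors that open chromatin at liver genes, and HNF4a is a nuclear receptor that drives many genes of the differentiated hepatocyte.

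The targeted genes were first checked against the labels. Foxa3 lay at or below 0.0114 RPKM (reads per kilobase of transcript, scaled to the mapped reads of the library) in every FoxA3 null and triple null library and at 19.0 to 34.5 RPKM in lox and Cre alfp. Foxa2 was at 0.243 to 0.470 RPKM in the triple null, against 11.1 to 20.6 in FoxA3 null, whereas Foxa1 still gave 3.04 to 3.63 RPKM, 38.6% of the FoxA3 null mean. In Cre alfp, Foxa1 stood at 18.4% and Foxa2 at 8.78% of the lox mean. Hnf4a was higher, not lower, in the libraries with the HNF4a null label, at 487 to 545 RPKM against 118 to 126 in control. The cause of the higher value was not tested. An RPKM over a whole gene also counts reads outside a deleted part, so it does not show whether such a part was lost. The label is therefore kept as a label below, and each direction drawn from those libraries rests on it. The hepatocyte libraries were 2.01 to 4.06 times as deep as the shallowest liver library, and liver libraries 1 to 1.10 times. Virus injection is given for the FoxA3-deficient groups and not for lox and Cre alfp, so in a comparison across FoxA3 genotypes the genotype and the injection cannot be told apart. The 8 hepatocyte markers, which include Alb and Ttr, were present in every group, with a summed 31600 to 41300 RPKM in FoxA3 null and 11700 to 16600 in the triple null (5 of 8 called lower and none higher); their part in the members' values was not tested. Neutrophil markers summed to 9 to 109 RPKM in the triple null, against 0.717 to 1.65 in FoxA3 null (2 of 2 tested called higher). Stellate cell and fibroblast markers summed to 6.74 to 24 RPKM against 25.4 to 35.1 (2 of 4 tested called lower), and erythroid markers to 5.94 to 21.7 against 33 to 47.3 (2 of 3 tested called higher and 1 lower). The part of these markers in the members' values was not tested. In bulk RNA, fewer cells of a type and less RNA per cell cannot be told apart.

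The sequences before the start of each gene are shown for the members on which the results turn: Apoc2, Apoh and Lcat, which were called between triple null and FoxA3 null, and Apoa2 and Apom, which were lowest relative to control in the libraries with the HNF4a null label. Each is the 250 bases before the transcription start, 5′ to 3′ on the strand of the gene, from RefSeq on the build GRCm38.p6. The windows are chr7:19677942-19678191 (minus strand, Apoc2), chr11:108395047-108395296 (plus, Apoh), chr8:105943403-105943652 (minus, Lcat), chr1:171224804-171225053 (plus, Apoa2) and chr17:35131802-35132051 (minus, Apom); for Apoa2, RefSeq lists a second start, whose window holds none of the strings searched. Capitals mark the letters TGTTTAC of the forkhead family and the letters TATAAA. The marked TATAAA of Apoa2 begins 212 bases before the start, and whether it serves as a TATA box was not tested.
Apoc2: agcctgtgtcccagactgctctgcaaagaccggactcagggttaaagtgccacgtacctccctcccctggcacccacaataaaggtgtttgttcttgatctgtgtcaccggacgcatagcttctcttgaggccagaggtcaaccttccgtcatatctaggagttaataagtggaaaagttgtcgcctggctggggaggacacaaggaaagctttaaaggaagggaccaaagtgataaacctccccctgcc
Apoh: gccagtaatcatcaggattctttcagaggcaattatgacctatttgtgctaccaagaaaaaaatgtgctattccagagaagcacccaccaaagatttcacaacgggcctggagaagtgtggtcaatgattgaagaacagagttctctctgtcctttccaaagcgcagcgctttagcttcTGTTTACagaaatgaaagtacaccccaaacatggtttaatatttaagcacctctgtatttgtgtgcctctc
Lcat: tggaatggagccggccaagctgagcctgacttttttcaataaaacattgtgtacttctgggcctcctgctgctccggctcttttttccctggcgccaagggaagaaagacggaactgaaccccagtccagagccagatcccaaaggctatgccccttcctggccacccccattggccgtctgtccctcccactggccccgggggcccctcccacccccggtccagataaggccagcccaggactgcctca
Apoa2: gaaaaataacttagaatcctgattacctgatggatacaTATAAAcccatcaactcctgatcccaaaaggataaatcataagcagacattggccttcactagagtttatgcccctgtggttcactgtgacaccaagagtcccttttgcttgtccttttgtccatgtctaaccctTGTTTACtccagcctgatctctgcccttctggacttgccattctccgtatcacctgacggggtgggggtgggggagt
Apom: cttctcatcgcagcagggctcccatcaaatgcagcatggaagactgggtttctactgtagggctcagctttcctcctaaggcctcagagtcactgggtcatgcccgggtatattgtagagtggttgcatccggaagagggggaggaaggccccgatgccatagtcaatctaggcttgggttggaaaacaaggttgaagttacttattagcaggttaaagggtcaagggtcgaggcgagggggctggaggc

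A promoter entry was found for 8 of the 10 members, with 11 starts between them; Apoc1 and Scarb1 had none. The search covered TGTTTAC as forkhead letters together with the variant TGTTTGC, the further variant TATTTAC and the variant TATTTGC, on both strands. It also covered the HNF4-type letters CAAAGGTCA, their variant CAAAGTCCA and the TATA box letters TATAAA. A forkhead match stood before 4 members: TGTTTAC begins 71 bases before the start in Apoh and 77 bases before 1 of 2 listed starts of Apoa2, the one printed, and Mttp and Apob hold TATTTAC and the reverse of TGTTTGC. Of all 32851 mouse windows of the same length, 11.9% hold such a match. Neither HNF4-type string was in any member's window (0.807% of all windows hold one), and TATAAA was before Apob, the same start of Apoa2 and 1 start of Apoe (12.4% of all windows). These matches are letters only. Apoh and that start of Apoa2 carry TGTTTAC at nearly the same distance. The window of Apoc2, the member with the largest difference between triple null and FoxA3 null, has none of the strings. Which start of Apoa2 the cells use, and the part of such letters in the members' differences, were not tested.

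In the triple null, set against FoxA3 null, the members went different ways; Foxa1 reads there were lowered but not lost, as given above. Apoc2, the activator of lipoprotein lipase, rose 7.68-fold. Apoh, which codes for beta-2-glycoprotein I, fell to 29.5% and Lcat, the cholesterol-esterifying enzyme of HDL, to 38.1% of the FoxA3 null mean. The other 7, among them Apob, Mttp, Apoa2 and Apoe, stayed under the size that counts as a change. A gene was called when limma's test on log2(RPKM + 1) gave a Benjamini-Hochberg adjusted p under 0.05 over all genes and the difference was at least 1 on the log2 scale. By that rule 3 of 10 members were called, 1 higher and 2 lower, where 8.11% of all 11500 genes tested were called, 4.17% higher and 3.95% lower. The members' median difference was -0.052 on the log2 scale and that of all genes 0.045. At any size, 6 members had an adjusted p under 0.05, as did 29.7% of all genes.

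**Figure D1:**
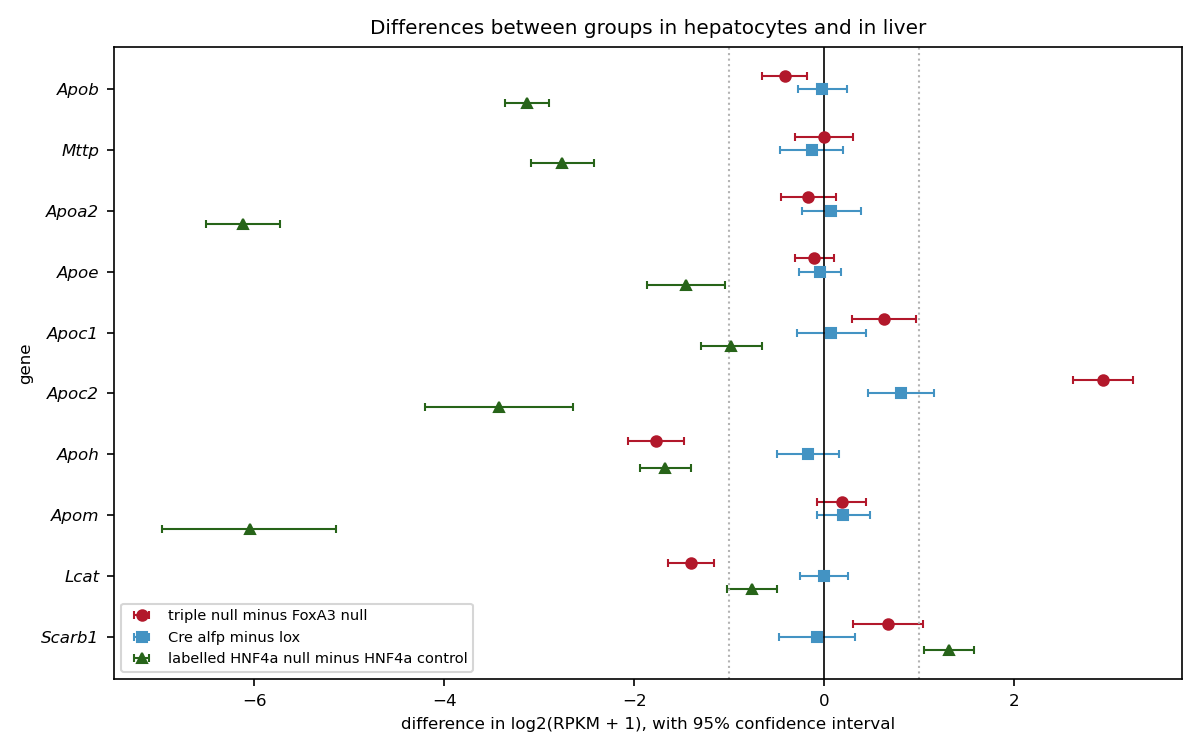
Difference of each gene (rows) on the log2(RPKM + 1) scale with its 95% confidence interval, for triple null minus FoxA3 null, Cre alfp minus lox, and libraries with the HNF4a null label minus HNF4a control; dotted lines mark a difference of 1 in either direction. Apoc2 stands at 2.94 for the triple null and at -3.42 for the libraries with the HNF4a null label, and Apoa2 and Apom lie furthest to the left, near -6.12 and -6.05.

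The comparison of Cre alfp with lox, where FoxA3 was intact, called 0 of the 10 members by limma, against 2.38% of all genes. At an unadjusted p under 0.05, and also at an adjusted p under 0.05 of any size, 1 member passed, and 5.46% of all genes passed the latter. That gene was Apoc2, 0.81 ± 0.16 (SE) higher on the log2 scale in Cre alfp than in lox (adjusted p = 0.00979). The 5 erythroid markers summed to 14.9 to 29.2 RPKM in Cre alfp and 81.3 to 90.8 in lox, without overlap, and their part in this difference was not tested. The direct test of the difference between the 2 deletions, an interaction term in the same limma fit, called the same 3 genes, with 6.82% of all genes called, and they alone passed at any size, as did 14.4% of all genes. Apoc2 had risen by 2.13 ± 0.22 more on the log2 scale in FoxA3-null cells (adjusted p = 2.54e-05), and Apoh and Lcat had fallen by 1.60 ± 0.21 and 1.40 ± 0.16 more (adjusted p = 0.000186 and 7.21e-05). The 2 deletions also differ in the Cre used and in virus injection, so these and the FoxA3 genotype cannot be told apart.

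Apob, the structural protein of VLDL and LDL, was among the steadier members in hepatocytes. Its level was 1126, 990, 887 and 977 RPKM in FoxA3 null and 721, 703, 883 and 682 RPKM in the triple null. All triple null libraries lay below all FoxA3 null libraries, but the lowest FoxA3 null library is only just above the highest triple null one. The difference, -0.42 ± 0.11 (SE) on the log2 scale (limma, adjusted p = 0.0117), was under the minimum size; the authors' deposited table gives -0.998 with an adjusted p of 0.00947 for the same pair of groups. Lox (815, 783 and 661 RPKM) and Cre alfp (741, 744, 705 and 772 RPKM) overlapped each other and the triple null. The liver groups did not overlap: 883 and 868 RPKM in HNF4a control and 101, 95.3, 108 and 93.4 RPKM in the libraries with the HNF4a null label. In liver Apob thus fell by 3.13 ± 0.10 (SE) on the log2 scale, to 11.4% of control (limma, adjusted p = 2.8e-06).

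Mttp, whose product loads lipid onto apolipoprotein B, fell in liver as Apob did. Its level in FoxA3 null was 95.5, 68.1, 56.2 and 69.7 RPKM and in the triple null 66.2, 70.5, 85.6 and 63.5 RPKM, 2 groups that overlap almost wholly. The fitted difference was -0.0019 on the log2 scale, with a 95% confidence interval from -0.31 to 0.30 (limma, adjusted p = 0.997), and its sign turned when any of FoxA3 null replicate 1 or triple null replicates 1, 2 and 4 was left out. Both of these groups lay above lox (43.8 to 48.1 RPKM) and Cre alfp (38.4 to 45.0 RPKM). In liver, Mttp fell from 83.5 and 70.2 RPKM in control to 10.5, 8.84, 10.5 and 12.3 RPKM, 13.7% of the control mean (difference -2.76 ± 0.14, limma, adjusted p = 2.13e-05). The control livers and the FoxA3-deficient hepatocytes had like levels, and the libraries with the HNF4a null label were the lowest of all groups.

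Apoa2, a major structural protein of HDL, was among the most abundant member RNAs, with Apoc1 and Apoe. The lox libraries had 26577, 26868 and 28542 RPKM and the Cre alfp libraries 32119, 30009, 28495 and 25014 RPKM. FoxA3 null had 15282, 18899, 24150 and 18705 RPKM and the triple null 18130, 15539, 15981 and 18294 RPKM. So FoxA3 null and triple null overlapped, and lox and Cre alfp overlapped above them. The triple null differed from FoxA3 null by -0.17 on the log2 scale, with a 95% confidence interval from -0.46 to 0.12 (limma, adjusted p = 0.38). Under quantile normalization the difference became -0.73, with an adjusted p of 0.00539, still under the minimum size. In liver the separation was far wider: 14223 and 12272 RPKM in control against 198, 228, 167 and 168 RPKM in the libraries with the HNF4a null label. In these libraries Apoa2 fell by 6.12 ± 0.16 (SE) on the log2 scale, to 1.44% of the control mean (limma, adjusted p = 1.72e-06).

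Apom, the carrier of sphingosine-1-phosphate on HDL, fell as steeply in liver. It had 403 and 408 RPKM in HNF4a control and 2.88, 3.90, 5.70 and 10.0 RPKM in the libraries with the HNF4a null label, a spread of 56.2% of the mean in the low group. The difference was -6.05 ± 0.39 (SE) on the log2 scale, with 1.39% of the control mean left (limma, adjusted p = 5.78e-05). In hepatocytes the triple null had 457, 395, 574 and 522 RPKM and FoxA3 null 446, 448, 394 and 409 RPKM, and these overlapped. Their difference of 0.19 on the log2 scale, with a 95% confidence interval from -0.07 to 0.45, did not pass the test (limma, adjusted p = 0.256); the authors' deposited table gives -0.033. Lox (220 to 280 RPKM) and Cre alfp (280 to 314 RPKM) lay below both. Apom thus spanned 86.5-fold between its highest and lowest group mean, from triple null hepatocytes to livers with the HNF4a null label, which are unlike preparations. Within liver the control mean was 72-fold that of the labelled null, and within hepatocytes the triple null mean was 1.93-fold that of lox.

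**Figure D2:**
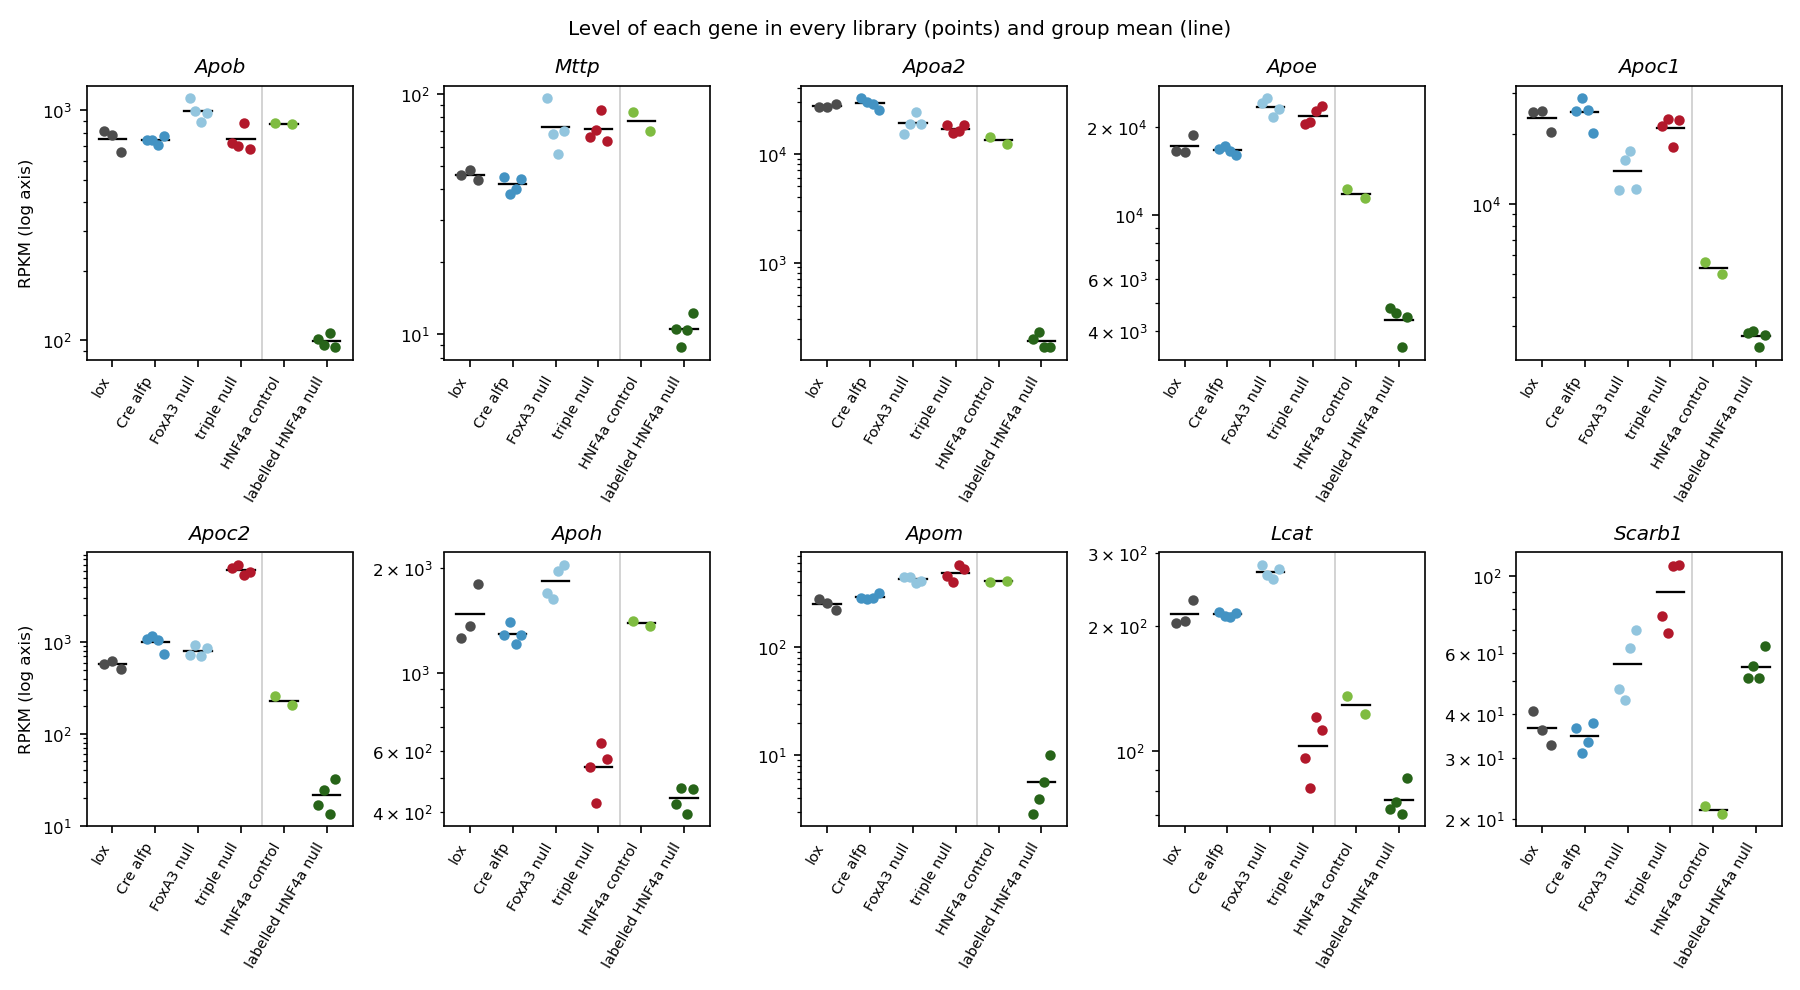
RPKM of each gene (log axis) in every library (points) with the group mean (line), for the 4 hepatocyte groups left of the grey line and the 2 liver groups right of it; each panel has its own range. The triple null stands alone for Apoc2 (5352 to 6958 RPKM) and low for Apoh and Lcat, and the libraries with the HNF4a null label have the lowest mean in every panel but Scarb1.

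Apoc2 had the widest range of all members, 285-fold between group means, from triple null hepatocytes to livers with the HNF4a null label. Hepatocytes and liver are unlike preparations and were fitted apart. Within hepatocytes the triple null mean was 10.7-fold that of lox, and within liver the control mean was 10.7-fold that of the labelled null. Apoc2 stood at 6423, 6958, 5352 and 5900 RPKM in the triple null and 725, 921, 708 and 854 RPKM in FoxA3 null. Every triple null library was several times above every other library of the series. The difference was 2.94 ± 0.15 (SE) on the log2 scale (limma, adjusted p = 3.75e-09), and the authors' deposited table gives 2.98. Cre alfp had 1094, 1173, 1060 and 743 RPKM and lox 585, 631 and 507 RPKM. These groups did not overlap, and Cre alfp overlapped FoxA3 null. In liver the gene moved the opposite way, from 257 and 205 RPKM in control to 16.7, 24.2, 13.5 and 32.1 RPKM, 9.37% of the control mean (difference -3.42 ± 0.33, limma, adjusted p = 0.000332).

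Apoc2 lies on chromosome 7 beside other apolipoprotein genes, in the RefSeq order Apoc2, Apoc4, Apoc1 and Apoe. RefSeq also lists a gene, Gm44805, named Apoc4-apoc2, whose name joins the pair; reads shared with it could be counted to Apoc2, and how the authors divided such reads is not given in the sources used here. In the triple null against FoxA3 null, Apoc2 was the only gene of the 4 that was called; Apoc1 was 1.54-fold higher, under the minimum size, and its values stand with those of Apoe below. Apoc4 had 1636, 1734, 1510 and 2042 RPKM in the triple null and 1389, 1789, 2523 and 1626 RPKM in FoxA3 null, and these overlapped (difference -0.06, 95% confidence interval -0.40 to 0.29, limma, adjusted p = 0.83). The ratio of Apoc2 to Apoc4 within a library was 3.59 ± 0.512 (SD, n = 4) in the triple null and 0.461 ± 0.120 (SD, n = 4) in FoxA3 null. That ratio was higher in all 4 triple null libraries (exact permutation test, two-sided p = 0.0286, the smallest this design allows). For Cre alfp it was 0.281 ± 0.0394 (SD, n = 4) and for lox 0.152 ± 0.00886 (SD, n = 3), again without overlap (exact permutation test, two-sided p = 0.0571, the smallest possible here). Across FoxA3 genotypes Apoc4 itself changed: it was called lower in FoxA3 null than in lox (1832 against 3794 RPKM, -1.08 on the log2 scale, limma, adjusted p = 0.00086). In the triple null it was also called lower, by -1.13 against lox and -1.06 against Cre alfp, so ratios across genotypes take in both genes. The ratio to Apoc1 gave the same order, 0.291 ± 0.0222 in the triple null, against 0.0597 ± 0.0133 in FoxA3 null (SD, n = 4 each; exact permutation test, two-sided p = 0.0286). In liver the ratio of Apoc2 to Apoc4 was 0.193 ± 0.0206 (SD, n = 2) in control and 0.0405 ± 0.0155 (SD, n = 4) in the libraries with the HNF4a null label (exact permutation test, two-sided p = 0.133, the smallest possible). The 6 ratio tests form 1 family, and adjusted over it (Benjamini-Hochberg, exact permutation) the p-values of the hepatocyte ratios became 0.0857, above 0.05. Each ratio holds the same Apoc2 values as the limma differences above, so these tests are not separate evidence.

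**Figure D3:**
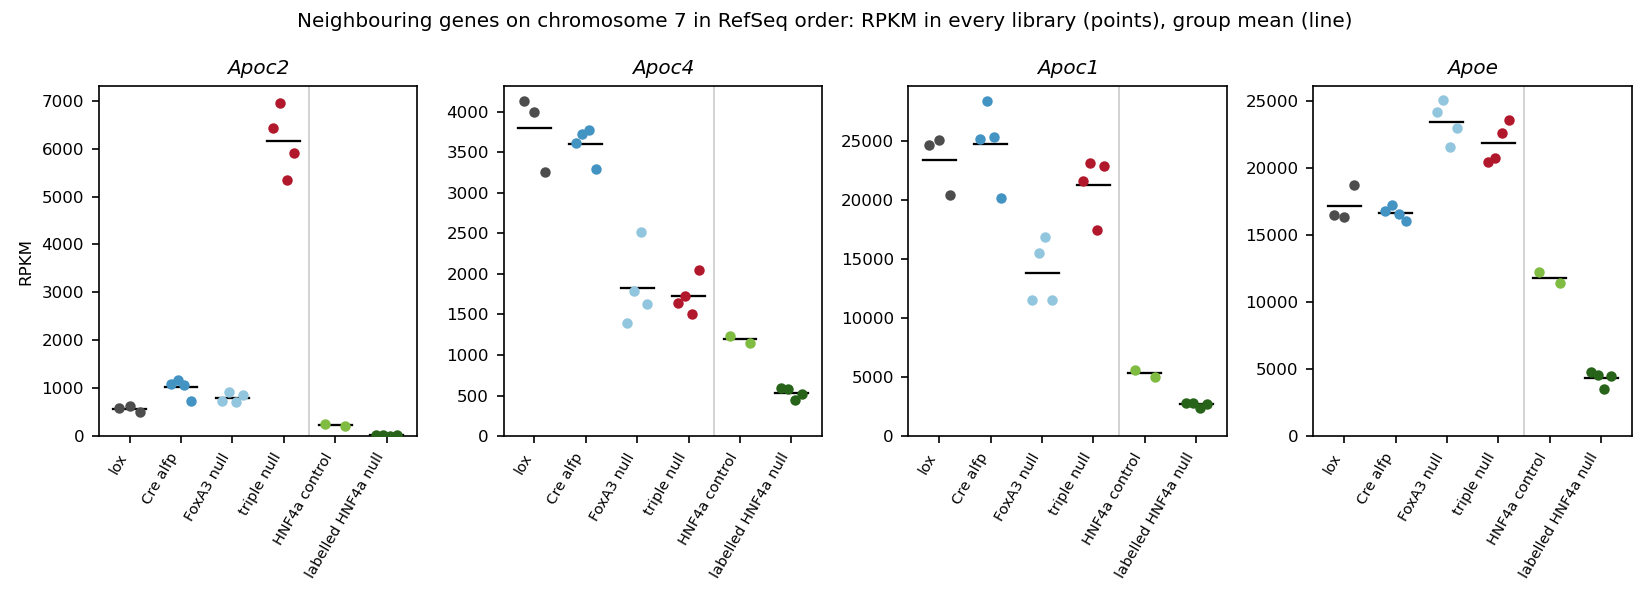
RPKM (linear axes from 0) of the neighbouring genes Apoc2, Apoc4, Apoc1 and Apoe in every library (points) with the group mean (line), in RefSeq order. The triple null rises for Apoc2 to 6158 RPKM, whereas Apoc4 is level between FoxA3 null (1832) and triple null (1730), and all 4 genes are lowest in the libraries with the HNF4a null label.

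Apoc1, an inhibitor of lipoprotein uptake and of CETP in species that have it, had 11492, 15480, 16816 and 11518 RPKM in FoxA3 null and 21552, 23108, 17448 and 22853 RPKM in the triple null. These did not overlap, but the difference of 0.63 ± 0.16 (SE) was under the minimum size (limma, adjusted p = 0.0082). The triple null overlapped lox (20379 to 25061 RPKM) and Cre alfp (20147 to 28326 RPKM), so FoxA3 null was the lowest hepatocyte group on the deposited scale. Under quantile normalization its difference from the triple null shrank to 0.15 and that from lox to -0.07, so this order depends on the scaling. In liver Apoc1 had 5627 and 4996 RPKM in control and 2423 to 2831 in the libraries with the HNF4a null label, 50.7% of control. The difference of -0.98 ± 0.14 (SE) had an adjusted p of 0.00153 by limma and stood just under the minimum size.

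Apoe, the ligand through which remnants bind LDL-family receptors, is made by macrophages as well as hepatocytes. It had 24156, 25008, 21548 and 22990 RPKM in FoxA3 null and 20420, 20746, 22618 and 23528 RPKM in the triple null, which overlap. The difference was -0.10 on the log2 scale, with a 95% confidence interval from -0.31 to 0.10 (limma, adjusted p = 0.447). Lox and Cre alfp overlapped each other at 16060 to 18692 RPKM, below both. In liver, Apoe fell from 12198 and 11419 RPKM to 4780, 4592, 3515 and 4477 RPKM, 36.8% of control (difference -1.45 ± 0.17, limma, adjusted p = 0.00085). Kupffer cell and macrophage markers summed to 216 to 266 RPKM in the libraries with the HNF4a null label and 173 to 184 in control. Of these, 1 of 11 was called higher and none was at 0. In hepatocytes these markers summed to 18.0 to 57.6 RPKM in the triple null, against 27.5 to 37.6 in FoxA3 null, and 0 of 10 tested were called by limma. The part of these markers in the values of Apoe was not tested.

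Apoh, the plasma protein that binds phospholipids and the antigen of antiphospholipid antibodies, was lower in the triple null and in the libraries with the HNF4a null label. In FoxA3 null it had 1697, 1628, 1961 and 2038 RPKM and in the triple null 538, 423, 629 and 569 RPKM. The highest triple null library lay far below the lowest FoxA3 null library. The difference was -1.77 ± 0.14 (SE) on the log2 scale (limma, adjusted p = 4.66e-07), against -1.81 in the authors' deposited table. Lox (1263, 1360 and 1798 RPKM) and Cre alfp (1284, 1396, 1213 and 1285 RPKM) overlapped, with a difference of -0.17 and a 95% confidence interval from -0.50 to 0.15. In liver it fell from 1413 and 1366 RPKM to 421, 467, 396 and 466 RPKM, 31.5% of control (difference -1.67 ± 0.11, limma, adjusted p = 7.85e-05). The lowest 2 groups, triple null and the libraries with the HNF4a null label, overlapped.

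Lcat, which esterifies cholesterol on HDL, had 280, 265, 259 and 274 RPKM in FoxA3 null, and 216, 211, 210 and 214 RPKM in Cre alfp. The triple null had 96.4, 81.5, 121 and 112 RPKM, below every other hepatocyte library, with a wider spread (coefficient of variation 16.9%, against 3.53% in FoxA3 null). The difference from FoxA3 null was -1.40 ± 0.11 (SE) on the log2 scale (limma, adjusted p = 4.49e-07). Lox had 203, 206 and 230 RPKM and overlapped Cre alfp; their fitted difference was 0.0008, with a 95% confidence interval from -0.26 to 0.26, and it turned sign under median scaling. In liver Lcat had 135 and 123 RPKM in control and 72.4, 75.6, 70.6 and 86.0 RPKM in the libraries with the HNF4a null label, 58.9% of control. That difference, -0.76 ± 0.11 (SE), had an adjusted p of 0.00182 by limma but was under the minimum size.

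Scarb1, which codes for the HDL receptor SR-BI, was the member that went up in liver. It had 21.8 and 20.8 RPKM in HNF4a control and 50.8, 54.9, 50.8 and 62.7 RPKM in the libraries with the HNF4a null label. The groups did not overlap, and the difference was 1.32 ± 0.11 (SE) on the log2 scale, 2.57-fold (limma, adjusted p = 0.000211). Relative to the median gene, which itself was 0.34 higher in those libraries, it was 0.98; the authors' deposited table gives 0.958. In hepatocytes Scarb1 had 47.5, 43.9, 62.2 and 70.0 RPKM in FoxA3 null and 76.8, 68.4, 106 and 107 RPKM in the triple null. The lowest triple null library lay below the highest FoxA3 null library, and the difference of 0.67 ± 0.17 (SE) was under the minimum size (limma, adjusted p = 0.00966). Sinusoidal endothelium also expresses Scarb1: its 12 markers summed to 12.7 to 24.7 RPKM in the triple null, against 37.8 to 60.4 in FoxA3 null (3 of 11 tested called lower, none at 0 in a whole group), and their part in the value of Scarb1 was not tested. In liver they summed to 240 to 258 RPKM in the libraries with the HNF4a null label and 187 to 209 in control, with 0 of 12 called by limma.

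Across the liver comparison, limma called 8 of 10 members, 7 lower and 1 higher, where 14.5% of 12434 genes were called, 5.95% lower and 8.58% higher. The members' median difference was -2.21 on the log2 scale and that of all genes 0.34; relative to that shift Apoc1 stood at -1.32, Lcat at -1.09 and Apoa2 at -6.46. All 10 had an adjusted p under 0.05 at any size, as did 52.8% of all genes, and in all 10 the groups did not overlap, as in 67% of all genes. By remaining share the lower members ran from Apom (1.39%) and Apoa2 (1.44%) through Apoc2 (9.37%), Apob (11.4%) and Mttp (13.7%) to Apoh (31.5%) and Apoe (36.8%). The authors' deposited table puts 9 members past the same rule, all lower, with Apoc1 at -1.39 and Lcat at -1.17 among them and Scarb1 just short. Cholangiocyte markers moved with these differences: the 7 markers summed to 125 to 223 RPKM against 14.8 to 15 in control, with 4 of 5 tested called higher. Neutrophil markers summed to 2.94 to 13.9 RPKM against 0.66 to 1.66, with 2 of 2 tested called higher. The hepatocyte markers summed to 10300 to 11900 RPKM against 22800 to 23300, with 5 of 8 called lower and 2 higher. The part of these shifts in the members' values was not tested.

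Across FoxA3 genotypes the values were as follows, with genotype and virus injection not told apart. Hepatocyte markers summed to 11700 to 16600 RPKM in the triple null, 33600 to 38600 in lox and 28400 to 34100 in Cre alfp. In the same order, neutrophil markers summed to 9 to 109, 0.734 to 1.43 and 1.2 to 3.61. Sinusoidal endothelium markers summed to 12.7 to 24.7, 48.7 to 81.3 and 27.8 to 99.1. Erythroid markers summed to 5.94 to 21.7, 81.3 to 90.8 and 14.9 to 29.2. Their part in the members' values was not tested. Triple null against lox called 4 members, with 13.5% of all genes, and triple null against Cre alfp called 4, with 10.3%. The members were Apoc2 and Scarb1, higher, and Apoh and Lcat, lower, in both. Apoc2 stood 3.42 ± 0.16 (SE) above lox and 2.61 ± 0.15 above Cre alfp on the log2 scale (limma, adjusted p = 1.28e-09 and 1.08e-08). Apoh was lower by -1.44 and -1.27 (adjusted p = 5.7e-06 and 1.11e-05) and Lcat by -1.06 in each (adjusted p = 1.11e-05 and 6.7e-06), and without triple null replicate 2 the difference of Lcat became -0.96 in each and left the call. Scarb1 was higher by 1.25 ± 0.19 and 1.32 ± 0.17 (limma, adjusted p = 0.000131 and 4.96e-05). The authors' deposited tables give it 0.864 against undeleted controls, short of the size rule, and 1.02 against Cre alfp. At any adjusted p under 0.05, 8 members passed in each, with 42.5% and 41.2% of all genes.

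FoxA3 null against lox called 0 of 10 members by limma, with 7.19% of all genes called. At an unadjusted p under 0.05, and at an adjusted p under 0.05 of any size, 9 members passed, and 34.8% of all genes did the latter. Apoa2 and Apoc1 were lower in FoxA3 null, by -0.52 and -0.77 on the log2 scale, and Apob, Apoe, Apoc2, Apom, Mttp, Lcat and Scarb1 were higher by 0.34 to 0.75. The erythroid markers summed to 33 to 47.3 RPKM in FoxA3 null and 81.3 to 90.8 in lox, without overlap. Their part in these differences was not tested. The median of all genes was 0.10 higher in this comparison, 0.13 in triple null against lox and 0.125 in triple null against Cre alfp. Under quantile normalization Apoa2 no longer lay lower, at 0.018, Apoc1 was at -0.07 (adjusted p = 0.631) and Apoe went from 0.45 to 0.82. Relative to these shifts Scarb1 was 1.12 above lox and 1.20 above Cre alfp in the triple null, and Lcat was at -1.19 against each. Triple null against lox shares its triple null libraries with triple null against Cre alfp and its lox libraries with FoxA3 null against lox, so it is not separate evidence from either.

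A list of 43 other genes of lipoprotein assembly, secretion, remodelling and uptake was set beside the members, 39 of them tested in hepatocytes. In the triple null against FoxA3 null, 4 were called higher and 3 lower, 17.9% of those tested beside 8.11% of all genes, with a median difference of -0.22 beside 0.045. Higher were Cd36, a fatty acid transporter (2.90 ± 0.40 SE on the log2 scale, from 3.84 to 32.7 RPKM), and Lpl, the lipase that Apoc2 activates (2.02 ± 0.47, from 2.66 to 13.8 RPKM). Sar1b, a GTPase of the vesicles that carry large lipoproteins, and Vldlr, a lipoprotein receptor, were each higher by 1.19. Lower were Apof, an inhibitor of lipid transfer (-3.69 ± 0.16, from 292 to 21.6 RPKM), Apon (-1.45 ± 0.16) and Angptl4, an inhibitor of lipoprotein lipase (-1.01 ± 0.30). Apof in liver was not called (0.17 ± 0.12, limma, adjusted p = 0.259).

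In Cre alfp against lox, 2 list genes were called higher, Lpl (2.24 ± 0.50) and Vldlr (2.38 ± 0.26), 5.13% of those tested beside 2.38% of all genes. In liver 41 were tested, and 7 were called higher and 12 lower, 46.3% of them beside 14.5% of all genes, with a median of -0.08 beside 0.34. Among the lower ones were Cideb, which acts in VLDL lipidation (-4.21 ± 0.18), Pla2g12b (-3.85 ± 0.19) and Tm6sf2 (-2.75 ± 0.24). Lipc, hepatic lipase, was lower by -4.26 ± 0.12 and Pltp, the phospholipid transfer protein, by -2.11 ± 0.12. Pdzk1, which codes for a scaffold that stabilises SR-BI, was lower by -4.57 ± 0.18, while Scarb1 itself was higher. Also lower were Apoc4, Apon, Soat2, Lipg and Pon1, between -3.0 and -1.17. Higher were Angptl8, Vldlr, Cd36, Clu, Abcg1, Lrp1 and Sdc1, between 1.01 and 3.86 where the median gene was itself 0.34 higher, with Angptl8 counted under an older symbol, Gm6484.

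The members with the widest range of hepatocyte group means were Apoc2 (3.42 on the log2 scale), Apoh (1.77) and Lcat (1.40). The genes whose pattern over the 15 hepatocyte libraries was most like theirs, among 6951 compared, were Spink3 (Pearson r = 0.979) and Sult1e1 (0.974) for Apoc2, C1rl (0.985) and Lcat (0.984) for Apoh, and Plg (0.987) and Apoh (0.984) for Lcat. The libraries of a group share their genotype, so these values describe the 4 group means more than 15 separate points. Apoh and Lcat were each among the other's nearest genes.

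The authors' deposited tables also compare hepatoblasts and newborn hepatocytes with adult hepatocytes, without naming the adult libraries. In the table for hepatoblasts all 10 members were past the same size and p rule and lower, as were 30.5% of its genes. The log2 fold changes ran from -6.50 for Apoc1, -5.98 for Apoh and -5.36 for Apoa2 to -1.53 for Scarb1 and -1.18 for Apom. In the newborn table the members divided. Apom (2.06), Scarb1 (1.94) and Apob (1.69) were higher than in adults, where 18.4% of genes were, and Apoc1 (-3.0) and Apoa2 (-1.63) lower, again beside 18.4% of genes. Apoe (0.042) and Apoc2 (-0.055) differed little, and in the table of the triple null against hepatoblasts Apoc2 had the largest value of the members, 7.53.

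**Figure D4:**
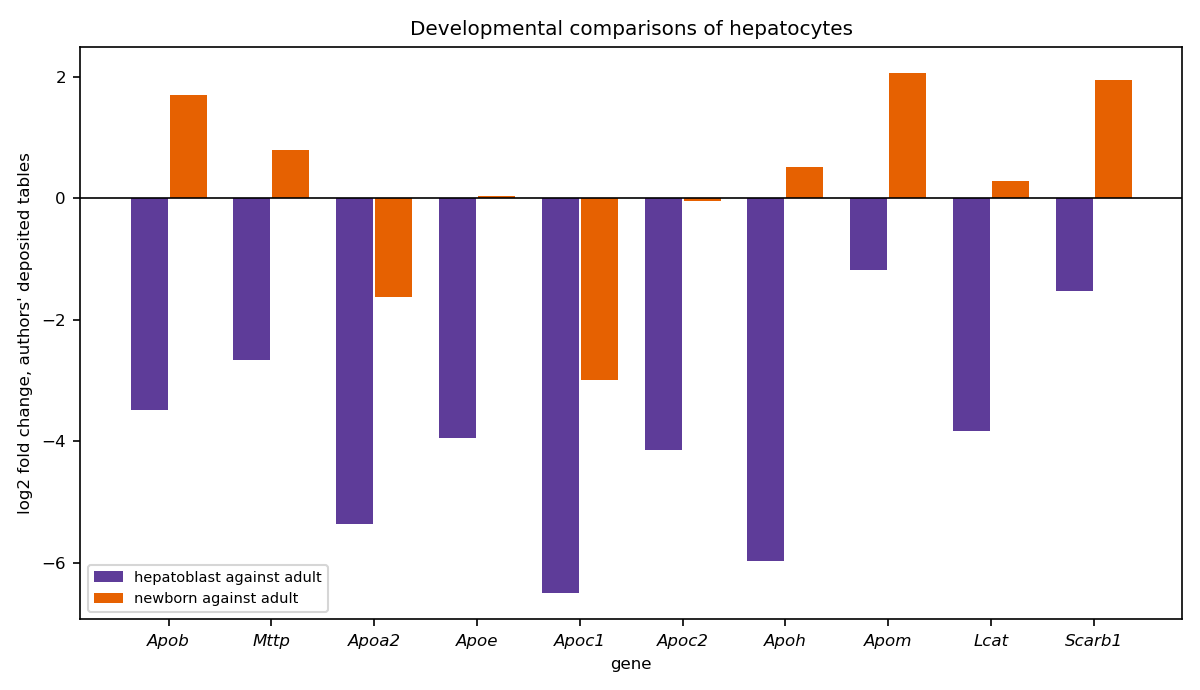
Log2 fold change of each gene in the authors' deposited tables for hepatoblast against adult and newborn against adult hepatocytes (bars from 0, without error bars). All 10 bars for hepatoblasts point down, to -6.50 for Apoc1, and those for newborns reach 2.06 for Apom and -3.0 for Apoc1.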

How the data were processed

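RNA from hepatocytes (15 libraries) and liver (6 libraries) was sequenced after preparation with the Ultra RNA kit of New England BioLabs, per the labels' protocols. The authors deposited 1 table of RPKM values, and tables of their own log2 fold changes with p-values. Per the submitters' processing notes the build was mm9 and the tools were SAMtools, Cufflinks 2.2.1 and DESeq2; the aligner, annotation and use of strand are not given in the sources used here. RPKM hold no totals, so depth was read only as relative depth from the steps of low values, and 2.9% of the values above 0 were under 1e-06. Of the table's columns 21 were used; 9 matched no sample here and were left out. The HNF4a columns carry an index name in place of a replicate number.

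Differences were fitted with limma 3.58.1 in R 4.3.3 on log2(RPKM + 1), with eBayes and trend, over genes with at least 1 RPKM in at least 3 hepatocyte libraries (11500 genes) or 2 liver libraries (12434 genes). The hepatocyte groups shared 1 fit and the livers had another. P-values were adjusted by Benjamini-Hochberg over all genes tested. For genes of low level this scale shows less than the full change. The script was tested on simulated data. In the authors' deposited table against undeleted controls the sign was turned, and p-values of the Cre alfp table, deposited unadjusted, were adjusted likewise. Promoter sequences came from RefSeq; HNF4a peaks were not used here, since their build differs. The named genes were the 10 members, the targeted genes, the called genes of a fixed partner list (1 of them is not reported here), and the 2 genes most alike (Pearson r, mean RPKM of at least 5) for the 3 members of widest range. The members and lists were chosen with earlier results of these data known. Other pseudocounts, no filter, median and quantile scaling, no trend, no minimum difference, a replicate block, fits on the compared groups only and leaving out each library were tried.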

Additional observations from a re-analysis of the deposited data

Results flagged for a closer look

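Apoc2, Apoh and Lcat were marked because the effect of deleting FoxA1 and FoxA2 differed between 2 settings by the interaction term in limma. The settings, without and with FoxA3, also differ in the Cre used and in virus injection, which cannot be told apart from FoxA3 status. Foxa1 stood at 38.6% of the FoxA3 null mean in the triple null and 18.4% of the lox mean in Cre alfp. The difference of the 2 effects was 2.13 on the log2 scale for Apoc2 (0.81 with FoxA3 intact and 2.94 without), -1.60 for Apoh (-0.17 and -1.77) and -1.40 for Lcat (0.0008 and -1.40). Over 23 alternatives the interaction ran from 1.99 to 2.22, from -1.75 to -1.48 and from -1.54 to -1.29, with adjusted p-values no higher than 0.000956.

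Apom in Cre alfp replicate 4, at 314 RPKM, was well above the 3 remaining Cre alfp libraries (280 to 284 RPKM). It was the only such library in 40 combinations of a member and a group of 4 libraries or more, where chance marks about 1 in 20.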

How the results depend on the processing

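The number of members called was within 1.5 times of the value reported in every alternative but the one with no minimum difference. There it went from 3 to 6 (triple null against FoxA3 null), from 0 to 1 (Cre alfp against lox), from 4 to 8 (triple null against lox and against Cre alfp) and from 0 to 9 (FoxA3 null against lox). Leaving out 1 library gave 3 members in triple null against FoxA3 null, 0 in Cre alfp against lox and in FoxA3 null against lox, 3 in the interaction, 4 to 5 in triple null against lox, 3 to 4 against Cre alfp and 8 to 9 in liver. None of the 22 called differences of a member changed sign in any alternative run. Lcat left the call without triple null replicate 2 (-0.955 against lox, -0.956 against Cre alfp). Calls were gained by Apoc1 in liver under median scaling (-1.25) and without control ATTCCTA (-1.06) or GGCTAC of the labelled null (-1.0), by Lcat in liver under median scaling (-1.03), and by Apom in triple null against lox under quantile normalization (1.01) and without lox replicate 1 (1.02) or triple null replicate 2 (1.03).

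Sign changes were limited to differences that were not called, none above 0.139 in size afterwards. Median scaling gave -0.021 for Lcat (Cre alfp against lox) and -0.107 for Apob (triple null against Cre alfp). Quantile normalization gave for Apob 0.032 (Cre alfp against lox), 0.0066 (triple null against lox) and -0.025 (triple null against Cre alfp), for Apoc1 0.083 and 0.023 (triple null against lox and against Cre alfp) and for Apoa2 0.018 (FoxA3 null against lox). Leaving out 1 library moved Apob from -0.109 to 0.041, Lcat from -0.031 to 0.058, Scarb1 from -0.147 to 0.011, Apoe from -0.079 to 0.017 and Apoc1 from -0.018 to 0.172 in Cre alfp against lox. It moved Apob from -0.103 to 0.047 against lox and from -0.077 to 0.047 against Cre alfp in the triple null, Mttp from -0.113 to 0.139 in triple null against FoxA3 null, and Apom from -0.1 to 0.080 in the interaction. The cause of these moves was not tested.

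Replicate numbers did not pair the hepatocyte samples: over 21 pairs with the same number the correlation of deviations ran from -0.36 to 0.17, with 3 over 0.1. A replicate block gave -0.019 for Lcat (Cre alfp against lox) and 0.0031 for Apom (interaction) and called the same numbers of members: 3, 0, 3, 4, 4 and 0. No paired analysis was possible because the columns carry no replicate numbers for the liver libraries.

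Counts over all genes moved more. With a pseudocount of 5 they were 505 (933 reported, triple null against FoxA3 null), 141 (274, Cre alfp against lox), 441 (784, interaction), 823 (1556, triple null against lox), 598 (1184, against Cre alfp), 354 (827, FoxA3 null against lox) and 791 (1807, liver). With no minimum they were 3413, 628, 1658, 4891, 4743, 4001 and 6569. FoxA3 null against lox gave 1303 with a pseudocount of 0.1. Cre alfp against lox gave 174 in a fit of those groups alone and 182 without lox replicate 1. Median scaling raised the lower calls from 42.9% to 54.9% (triple null against lox), 48.9% to 60.4% (against Cre alfp), 49.5% to 63.7% (FoxA3 null against lox) and 41% to 65.8% (liver).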
